A study of Mus musculus with 12 samples.

Results

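Transcripts of 10 enzymes that modify and crosslink collagen and elastin were measured in the venous limb of a mouse arteriovenous fistula (AVF): the lysyl oxidases Lox, Loxl1, Loxl2, Loxl3 and Loxl4, the lysyl hydroxylases Plod1, Plod2 and Plod3, and the prolyl 4-hydroxylase alpha subunits P4ha1 and P4ha3. They were taken by gene symbol, not by a rule on their values, but with earlier results of these data known. They are 10 of the 55414 genes in the count table. RNA was sequenced from the inferior vena cava (IVC) of 12 wild-type C57BL/6J mice, given as 10 weeks old and sampled on postoperative day 7, with 1 library per mouse. The AVF group (n = 6, 3 female and 3 male) had a needle puncture joining the infrarenal aorta to the IVC, and the sham group (n = 6, 3 female and 3 male) had the same anesthesia, analgesia, laparotomy and vessel clamping without the puncture. No allele or drug differed between the groups, and the AVF segment was cut from the vein above the fistula opening, so that it is a whole vessel wall with its attached tissue and not 1 cell type.

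Collagen chains are modified inside the endoplasmic reticulum before they are secreted. Prolyl 4-hydroxylases hydroxylate proline, which lets the triple helix hold together at body temperature, and lysyl hydroxylases hydroxylate lysine, which sets the kind of crosslink and where sugars are attached. Outside the cell, the copper enzymes of the lysyl oxidase family oxidize lysine and hydroxylysine side chains of collagen and elastin, and the aldehydes formed condense into the covalent crosslinks that give a vessel wall its tensile strength and recoil. Oxygen, iron and ascorbate are used by the hydroxylases, and P4ha1, Plod2, Lox and Loxl2 are known targets of the hypoxia-inducible factors.

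Libraries held 15177881 to 22717423 counts. Ribosomal RNA made up 46.0% of AVF female 1 and 2.39% to 12.6% of every other library, which left 8196603 to 21114575 other counts. Expression is reported in normalized CPM, which scales each count to the TMM-normalized size of its library, and 3 counts in a library, the least taken as detected, were 0.127 to 0.323 normalized CPM; this limit covers counting error only. All 8 hepatocyte markers tested were higher in AVF by edgeR's quasi-likelihood test, through AVF male 2 and AVF female 2, the libraries the study set apart: their summed markers, including Alb, stood at 2770 and 8214 normalized CPM against 3.03 to 6.33 in the other 4 AVF libraries and 1.14 to 4.91 in sham. Summed striated muscle markers were 1194 normalized CPM in Sham female 3 and 682 in Sham female 1, against 0.593 to 45.5 in the other 10 libraries. Vascular markers were present throughout: summed endothelial markers, such as Pecam1, were 1870 to 2450 normalized CPM in AVF and 1614 to 2756 in sham, summed smooth muscle markers, such as Myh11, were 2272 to 4837 and 2610 to 4704, and no gene of either list was called.

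The first comparison asked which of the enzymes differed between the vein exposed to arterial flow and the sham vein. Of the 10, 7 were higher in AVF: Lox, Loxl1, Loxl2, Loxl3, Plod1, Plod3 and P4ha3. A gene was called with an adjusted p value under 0.05 by edgeR's quasi-likelihood test, adjusted by the Benjamini-Hochberg procedure over the 15912 genes that passed 1 CPM in 2 or more libraries, and 8.63% of these were called higher. All 10 enzymes passed this filter, and 0 of them were called lower, against 5.13% of the tested genes. A total of 5 were DEG, with a change of at least 2-fold as well (Lox, Loxl1, Loxl2, Loxl3 and P4ha3), against 3.37% of tested genes that were DEG higher in AVF. The median log2 fold change of the 10 was 0.98, and that of all tested genes was -0.01. In each of the 7, every AVF library was above every sham library, which was so for 4.55% of tested genes.

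**Figure D1:**
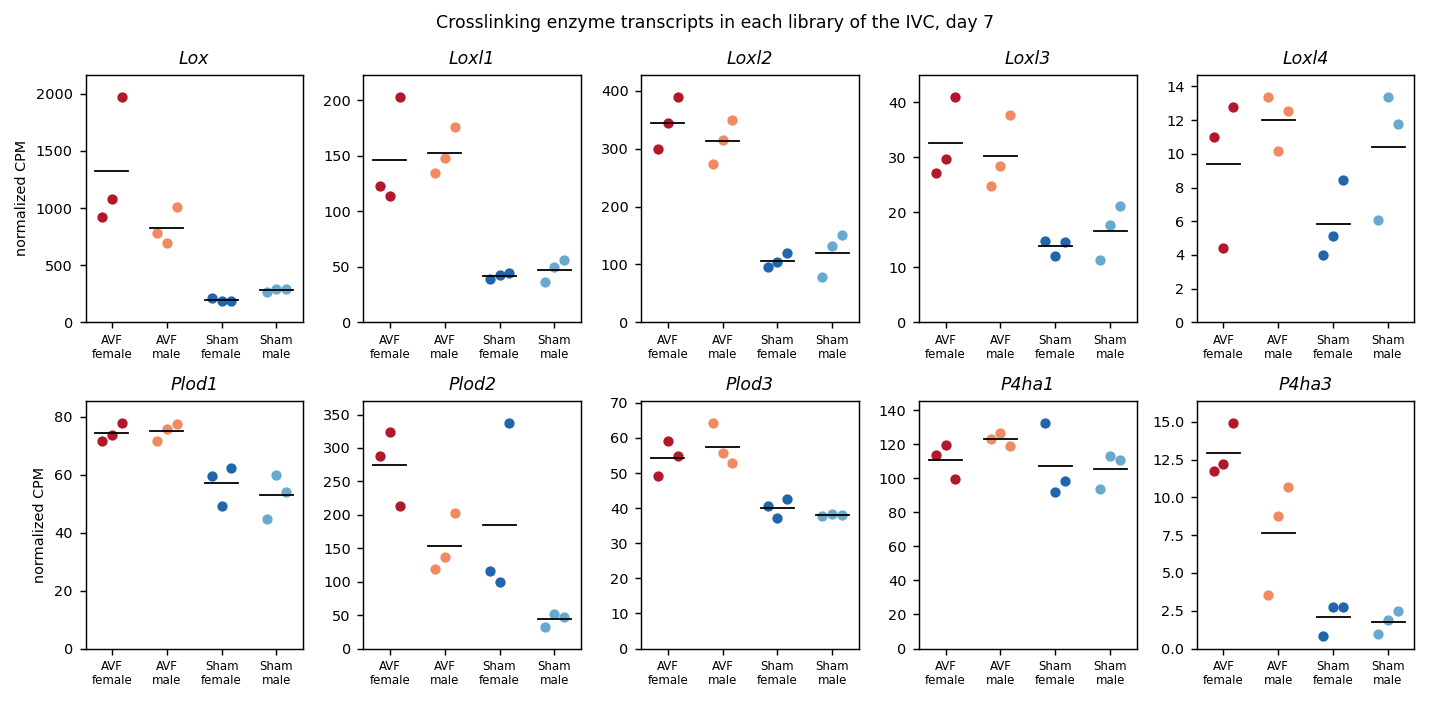
Normalized CPM (y axis, linear from 0) of each enzyme in the 3 libraries of each group of operation and sex (points, with the group mean as a line). The AVF points of Lox, Loxl1, Loxl2, Loxl3, Plod1, Plod3 and P4ha3 lie above all 6 sham points, those of Loxl4, Plod2 and P4ha1 do not, and Plod2 in Sham female 3 stands at 337 normalized CPM.

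Lox, the founding lysyl oxidase (chromosome 18, 52649136 to 52663110, minus strand; all gene positions are on GRCm39), acts on both elastin and fibrillar collagen. Its level in AVF ranged from 690 to 1971 normalized CPM with a median of 963, and in sham from 183 to 295 with a median of 239. The groups were far apart, and AVF female 3 lay well above the other AVF libraries, of which the next held 1077. Lox was 4.49-fold higher in AVF (log2 fold change 2.17, SE 0.25, adjusted p = 0.00031 by edgeR's quasi-likelihood test), and the log2 fold change was 1.90 without AVF female 3.

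Loxl1 (chromosome 9, 58195014 to 58220495, minus strand) is the family member tied most closely to elastic fibres. It ranged from 113 to 203 normalized CPM in AVF, with a median of 141, and from 36.1 to 56.5 in sham, with a median of 43.2. The lowest AVF library thus held about as much Loxl1 again as the highest sham library. It was 3.35-fold higher in AVF (log2 fold change 1.75, SE 0.16), and with an adjusted p of 8.09e-05 by edgeR's quasi-likelihood test it ranked 11 among the 15912 genes tested, the highest rank of the 10 enzymes.

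Loxl2 (chromosome 14, 69846209 to 69933283, plus strand), which crosslinks collagen IV of basement membranes, ranged from 274 to 389 normalized CPM in AVF with a median of 330. In sham it ranged from 78.4 to 151, with a median of 112. The spread within AVF was narrow for this gene (329 ± 41.1, SD, n = 6), and the sham libraries fell well below it (113 ± 26.0, SD, n = 6). The change was 2.90-fold (log2 fold change 1.54, SE 0.15, adjusted p = 0.000135 by edgeR's quasi-likelihood test).

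Loxl3 and Loxl4 were the least abundant lysyl oxidases. Loxl3 (chromosome 6, 83011152 to 83029543, plus strand), which has been tied to cartilage and craniofacial collagen, ranged from 24.7 to 40.9 normalized CPM in AVF (median 29.0) and from 11.3 to 21.1 in sham (median 14.7). It was 2.06-fold higher (log2 fold change 1.04, SE 0.17, adjusted p = 0.00257 by edgeR's quasi-likelihood test) and sat at the edge of the 2-fold threshold: its log2 fold change was 0.95 without AVF female 3, 0.97 without Sham male 1 and 0.99 without AVF male 3 or without Sham female 2, and in these 4 cases it was called but was not a DEG. Loxl4 (chromosome 19, 42580711 to 42601252, minus strand) ranged from 4.38 to 13.4 normalized CPM in AVF (median 11.8) and from 4.02 to 13.4 in sham (median 7.26), so that the ranges overlapped almost completely. The low end in AVF was AVF female 2, and the next AVF library held 10.2. Its log2 fold change was 0.40 (SE 0.32, adjusted p = 0.431 by edgeR's quasi-likelihood test). Without AVF male 2 and AVF female 2 it was 0.62 (adjusted p = 0.201 by the same test), also not called.

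Levels can be compared between the enzymes only per length, so normalized CPM was divided by the length of the canonical transcript in kb. Summed over the 5 lysyl oxidases, the level per kb was 341 ± 112 (SD, n = 6) in AVF and 90.0 ± 16.7 (SD, n = 6) in sham, 3.79-fold apart, with ranges of 257 to 559 and 74.3 to 114. Lox was the leading transcript, with 64.5% ± 6.0 of this sum in AVF and 55.5% ± 5.7 in sham (SD, n = 6), and its ranges overlapped (56.2% to 73.8% and 48.9% to 65.2%). Loxl2 took 19.0% ± 3.2 in AVF and 23.8% ± 3.7 in sham, and Loxl1 13.6% ± 2.8 and 15.0% ± 1.6. The ranges of Loxl2 and Loxl1 overlapped in AVF, where they were 13.1% to 23.1% and 10.2% to 17.3%, while in sham Loxl2 (17.4% to 28.2%) stayed above Loxl1 (12.8% to 17.0%). Loxl3 made up 2.31% ± 0.34 in AVF and 4.12% ± 0.50 in sham, and Loxl4 made up 0.613% ± 0.244 and 1.60% ± 0.505. The order of the 5 was thus Lox, Loxl2, Loxl1, Loxl3 and Loxl4 by mean in both groups. The 2 minor members took a smaller share in every AVF library than in any sham library. For Loxl4 the groups nearly met, with at most 0.931% in AVF and at least 0.934% in sham. The sum rose 3.79-fold, so a member that rose less would take a smaller share too. These shares were not tested, and how often other genes show such a separation was not counted.

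**Figure D2:**
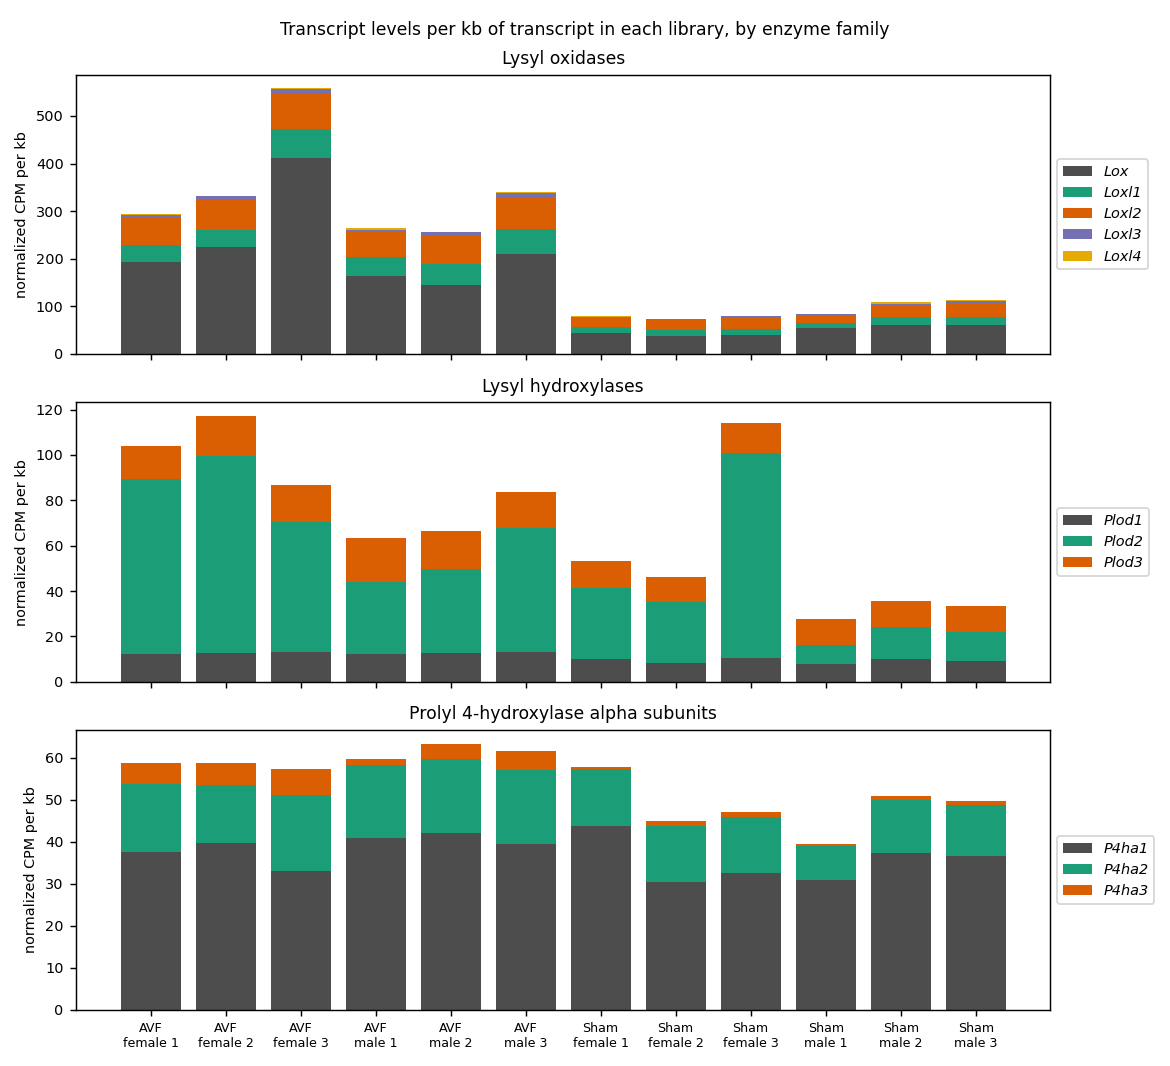
Level per kb of canonical transcript (normalized CPM per kb, y axis, linear from 0) of each enzyme in each of the 12 libraries, stacked by family. The lysyl oxidase bars are 257 to 559 in AVF and 74.3 to 114 in sham, the lysyl hydroxylase bar of Sham female 3 (114) is within the AVF range, and the prolyl 4-hydroxylase alpha bars, which include P4ha2, span 57.2 to 63.3 in AVF and 39.5 to 57.7 in sham.

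Of the 3 lysyl hydroxylases 2 were called higher, with smaller fold changes than those of the 4 called lysyl oxidases. Plod1 (chromosome 4, 147991574 to 148021356, minus strand), which hydroxylates lysines of the helix, ranged from 71.7 to 77.7 normalized CPM in AVF (median 74.8) and from 44.8 to 62.4 in sham (median 56.7). Plod3 (chromosome 5, 137015827 to 137025502, plus strand), which also attaches sugars to hydroxylysine, ranged from 49.1 to 64.2 in AVF (median 55.3) and from 37.1 to 42.6 in sham (median 38.2). In both genes the AVF and sham libraries were close but did not overlap. By edgeR's quasi-likelihood test, Plod1 was 1.36-fold higher (log2 fold change 0.44, SE 0.08, adjusted p = 0.00567) and Plod3 was 1.43-fold higher (log2 fold change 0.52, SE 0.07, adjusted p = 0.00125), and neither reached 2-fold.

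Plod2 (chromosome 9, 92424119 to 92490494, plus strand) encodes the hydroxylase of the collagen telopeptides, which directs crosslinks to the hydroxylysine type that marks stiff and scarred tissue. It ranged from 119 to 324 normalized CPM in AVF, with a median of 208, and from 31.9 to 337 in sham, with a median of 75.8. In the sham group, 5 of the 6 libraries were below every AVF library, and Sham female 3, at 337, was above every AVF library. The log2 fold change was 0.91 (SE 0.51), and edgeR's quasi-likelihood test did not call it (adjusted p = 0.243). It was called by the same test without Sham female 3 (log2 fold change 1.62, adjusted p = 0.0208), with sex as a covariate (1.19, adjusted p = 0.0414) and with a replicate block (1.33, adjusted p = 0.0392). Sham female 3 was also the library with the most striated muscle RNA, 1194 normalized CPM in summed markers, led by Myh4 (602) and Acta1 (246). Sham female 1, with 682, was led by Myh6 (408), had Myh4 at 0.104, and held 116 normalized CPM of Plod2. These sums are led by different muscle genes. In AVF female 1, 2 and 3, Myh4 was 0, 19.7 and 14.9 normalized CPM and Plod2 was 287, 324 and 213. The part of these markers in the Plod2 level was not tested.

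P4ha1 and P4ha3 encode alternative catalytic alpha subunits of the same tetramer. P4ha1 (chromosome 10, 59159092 to 59209126, plus strand) ranged from 99.8 to 127 normalized CPM in AVF (median 119) and from 91.8 to 132 in sham (median 104), with overlapping groups. P4ha3 (chromosome 7, 99934686 to 99968907, plus strand) ranged from 3.54 to 14.9 in AVF (median 11.2) and from 0.835 to 2.76 in sham (median 2.18), without overlap. P4ha3 was 5.28-fold higher (log2 fold change 2.40, SE 0.38, adjusted p = 0.002 by edgeR's quasi-likelihood test), the largest fold of the 10, from a low level: its counts were 62 to 318 per library in AVF and 16 to 65 in sham. P4ha1 had a log2 fold change of 0.13 (SE 0.10, adjusted p = 0.366). Per kb, P4ha3 took 7.22% ± 2.87 (SD, n = 6) of the 3 alpha subunits in AVF and 1.70% ± 0.79 in sham, and P4ha1 took 64.7% ± 3.8 and 73.1% ± 4.0. The remaining subunit, P4ha2, took 28.0% ± 2.5 in AVF and 25.2% ± 3.3 in sham.

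The upstream bases of P4ha1, P4ha3, Plod1 and Plod3 are shown because they let these subunits and hydroxylases be read side by side for the core of the hypoxia response element. The RefSeq promoter table (build GRCm38.p6) held 5 of the 10 enzymes; Lox, Loxl1, Loxl2, Loxl3 and Plod2 had no entry. Each line gives the 250 bases before the gene's start, 5′ to 3′ on the gene's strand, from chr10:59323046-59323295 (plus) for P4ha1, chr7:100285270-100285519 (plus) for P4ha3, chr4:147936777-147937026 (minus) for Plod1 and chr5:136986769-136987018 (plus) for Plod3. Capitals mark the letters ACGTG or GCGTG, read on either strand.
P4ha1: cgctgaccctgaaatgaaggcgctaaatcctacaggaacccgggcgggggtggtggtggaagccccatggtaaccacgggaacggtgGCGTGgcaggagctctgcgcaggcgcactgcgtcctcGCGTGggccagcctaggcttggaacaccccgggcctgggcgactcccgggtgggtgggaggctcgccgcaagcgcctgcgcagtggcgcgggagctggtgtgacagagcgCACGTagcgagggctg
P4ha3: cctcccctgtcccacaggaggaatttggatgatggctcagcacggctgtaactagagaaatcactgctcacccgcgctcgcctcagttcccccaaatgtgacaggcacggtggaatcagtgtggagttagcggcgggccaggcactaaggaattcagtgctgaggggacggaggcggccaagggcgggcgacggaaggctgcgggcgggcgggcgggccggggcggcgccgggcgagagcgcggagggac
Plod1: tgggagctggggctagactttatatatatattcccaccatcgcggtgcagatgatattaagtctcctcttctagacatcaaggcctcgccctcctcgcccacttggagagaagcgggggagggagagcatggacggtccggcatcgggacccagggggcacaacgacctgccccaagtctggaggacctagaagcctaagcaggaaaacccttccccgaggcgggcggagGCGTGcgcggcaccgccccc
Plod3: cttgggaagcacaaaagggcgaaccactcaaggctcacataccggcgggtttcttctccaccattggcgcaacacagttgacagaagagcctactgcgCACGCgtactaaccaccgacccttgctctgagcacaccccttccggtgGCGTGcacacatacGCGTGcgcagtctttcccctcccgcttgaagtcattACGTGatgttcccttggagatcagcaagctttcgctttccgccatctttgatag

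P4ha1 held 3 of these cores, starting 163, 126 and 16 bases before the gene's start, Plod3 held 4, and Plod1 and Loxl4 held 1 each, while none was found in P4ha3. A core was present in 38.6% of the 32851 promoters of the table over the same length, so that 4 of 5 enzymes with a core is a description of letters and not of binding.

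**Figure D3:**
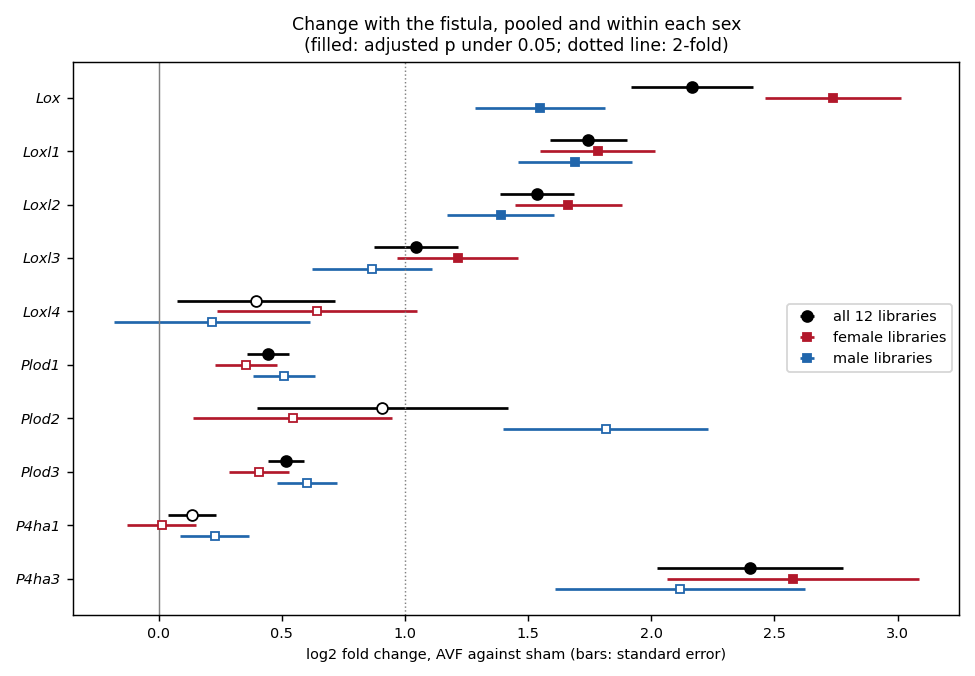
Log2 fold change of AVF against sham (x axis, bars are standard errors) of each enzyme over all 12 libraries (black), in female libraries (red) and in male libraries (blue). Filled symbols passed an adjusted p value of 0.05 by edgeR's quasi-likelihood test and the dotted line marks 2-fold; the 4 lysyl oxidases Lox, Loxl1, Loxl2 and Loxl3 and P4ha3 lie at 1.04 to 2.40 over all libraries, and Plod1 and Plod3 at 0.44 and 0.52.

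The sexes, which the study also compared, were tested here in a model of 4 groups over the 22163 genes with more than 12 counts in all. Between female and male AVF 0 of the 10 enzymes were called by edgeR's quasi-likelihood test, against 0.0226% of tested genes, and their lowest adjusted p was 0.980; 1 enzyme, Lox, and 1005 genes in all had an unadjusted p under 0.05. Between female and male sham 0 were called, against 0.0451% of tested genes, and 1 enzyme, Plod2, was among 1680 genes with an unadjusted p under 0.05. The interaction of operation and sex called 0 enzymes and 0% of tested genes, with 2 enzymes, Lox and Plod2, among the 1069 genes at an unadjusted p under 0.05. DESeq2 also called 0 enzymes in AVF and in the interaction, and 1, Plod2, in sham.

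Plod2 had the widest difference between the sexes. In sham it was 100, 116 and 337 normalized CPM in female mice and 31.9, 47.6 and 51.8 in male mice. In AVF it was 213, 287 and 324 in female mice and 119, 138 and 203 in male mice. Females were above males within each operation with no overlap, in 3 against 3 libraries. The share of all tested genes with such a separation of the sexes was not counted, so it is a description. The sham libraries of the sexes also differed in tissue markers. Summed striated muscle markers were 682, 0.593 and 1194 normalized CPM in female sham and 0.709 to 0.811 in male sham. Summed brown fat markers were 537 to 1752 in female sham and 104 to 897 in male sham. The part of these tissues in the sex differences of Plod2 and Lox was not tested. The log2 difference of female against male was 2.09 in sham (SE 0.42, adjusted p = 0.205) and 0.82 in AVF (SE 0.41, adjusted p = 0.980), and neither was called by edgeR's quasi-likelihood test; without Sham female 3 the former was 1.32 (adjusted p = 0.338). Among the 3 lysyl hydroxylases, Plod2 made up 57.9% to 79.4% of the level per kb in female sham, 31.1% to 39.1% in male sham, 65.7% to 74.1% in female AVF and 50.4% to 65.2% in male AVF. The male sham libraries were thus the only ones of the 12 in which Plod2 held less than Plod1 and Plod3 together.

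Lox and P4ha3 also had a pair of groups in which the sexes did not overlap, and here too the share over all tested genes was not counted. Lox in sham was 183, 187 and 215 normalized CPM in females and 263, 292 and 295 in males, and in AVF it was 920, 1077 and 1971 in females and 690, 781 and 1006 in males. Females were thus below males in sham with no overlap, and in AVF the sexes overlapped. The log2 fold change with the fistula was 2.74 in females and 1.55 in males, and the difference between them was 1.19 (SE 0.37, unadjusted p = 0.00743, adjusted p = 0.960 by edgeR's quasi-likelihood test). P4ha3 in AVF was 11.7, 12.2 and 14.9 normalized CPM in females and 3.54, 8.80 and 10.7 in males, with a log2 difference of 0.74 (SE 0.48) that was not called, and the sexes did not overlap there.

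Within the sexes, AVF against sham called fewer of the enzymes, with 3 mice in each group. In females, Lox, Loxl1, Loxl2, Loxl3 and P4ha3 were called higher, 5 of 10, against 1.61% of tested genes. In males, Lox, Loxl1 and Loxl2 were called, 3 of 10, against 0.424%. The log2 fold changes of Loxl1 were close in the sexes (1.78 in females and 1.69 in males), as were those of Loxl2 (1.66 and 1.39), and the interaction was not called for either gene.

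Many genes for the substrates of these enzymes were higher in AVF as well. Of the 8 tested fibrillar collagen genes 5 were called higher and 0 lower by edgeR's quasi-likelihood test, with a median log2 fold change of 1.18, against 8.63% of all tested genes called higher and 5.13% called lower. They included Col5a2 (1.47, SE 0.18, adjusted p = 0.000493), Col5a1 (1.39), Col3a1 (1.17) and Col1a1 (1.34, SE 0.24, adjusted p = 0.00432), the chains of collagens V, III and I. Of the 6 collagen IV genes, the substrates of Loxl2 in basement membranes, 3 were called higher, against the same 8.63%: Col4a1 (1.37, SE 0.12), Col4a2 (1.36) and Col4a5 (1.17). Of the 12 elastin and elastic fibre genes 9 were called higher and 0 lower, with a median of 1.21, where the median of all tested genes was -0.01. Eln, which encodes tropoelastin, ranged from 2158 to 4990 normalized CPM in AVF and from 202 to 382 in sham, and its log2 fold change of 3.57 (SE 0.24, adjusted p = 1.59e-05) was above that of every enzyme. Fbn2 (2.59), Mfap5 (1.64) and Mfap4 (1.63), which encode microfibril proteins, rose too.

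Most of the other enzymes and chaperones of the endoplasmic reticulum that act on collagen were higher in AVF. Of these 12 genes 9 were called higher and 0 lower by edgeR's quasi-likelihood test, with a median log2 fold change of 0.64; over all tested genes 8.63% were called higher and 5.13% lower, so that 0 lower of 12 is near that share. Fkbp10, a chaperone needed by Plod2, had a log2 fold change of 1.18 (SE 0.17, adjusted p = 0.00128). P3h1, a prolyl 3-hydroxylase, had 0.98, Colgalt1, which adds galactose to hydroxylysine, had 0.75, and Serpinh1, the collagen chaperone HSP47, had 0.73. Among the 8 genes of procollagen and proenzyme processing, 3 were called higher and 1 lower, the latter near the 5.13% of all tested genes: Adamts3 (1.68), Adamts2 (0.99) and Bmp1 (0.83) rose, and Tll1, a proteinase related to Bmp1, fell by 1.04 on the log2 scale. Bmp1 cleaves the C-propeptide of collagen and also the propeptide of lysyl oxidase, and its levels were 88.0 to 130 normalized CPM in AVF and 43.7 to 80.4 in sham.

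Genes of other crosslinking chemistry, of cofactor supply and of the hypoxia response are given beside the 8.63% of tested genes called higher and the 5.13% called lower; with lists of this size, a count of 0 or 1 is near these shares. Of 5 tested transglutaminases and peroxidases, 1 was called higher: Pxdn, the peroxidase that forms sulfilimine bonds in collagen IV (log2 fold change 0.66, SE 0.10, adjusted p = 0.00125 by edgeR's quasi-likelihood test). Of 6 tested genes of copper and ascorbate transport, 1 was called higher, Slc23a1, an ascorbate carrier, which stood at 2.24 normalized CPM in AVF male 2, 7.45 in AVF female 2, 0.0469 in AVF female 3 and 0 in the other 3 AVF libraries. Those 2 libraries were the ones with hepatocyte markers, and without either of them, or without any 1 of the 6 sham libraries, it was not called. Of 10 tested hypoxia response genes 0 were called higher and 3 were called lower, with a median log2 fold change of -0.47 against -0.01 over all tested genes: Egln1 (-0.55), Pgk1 (-0.53) and Ndrg1 (-0.42). The count of hypoxia genes called lower ranged from 1 to 5 over the alternatives.

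**Figure D4:**
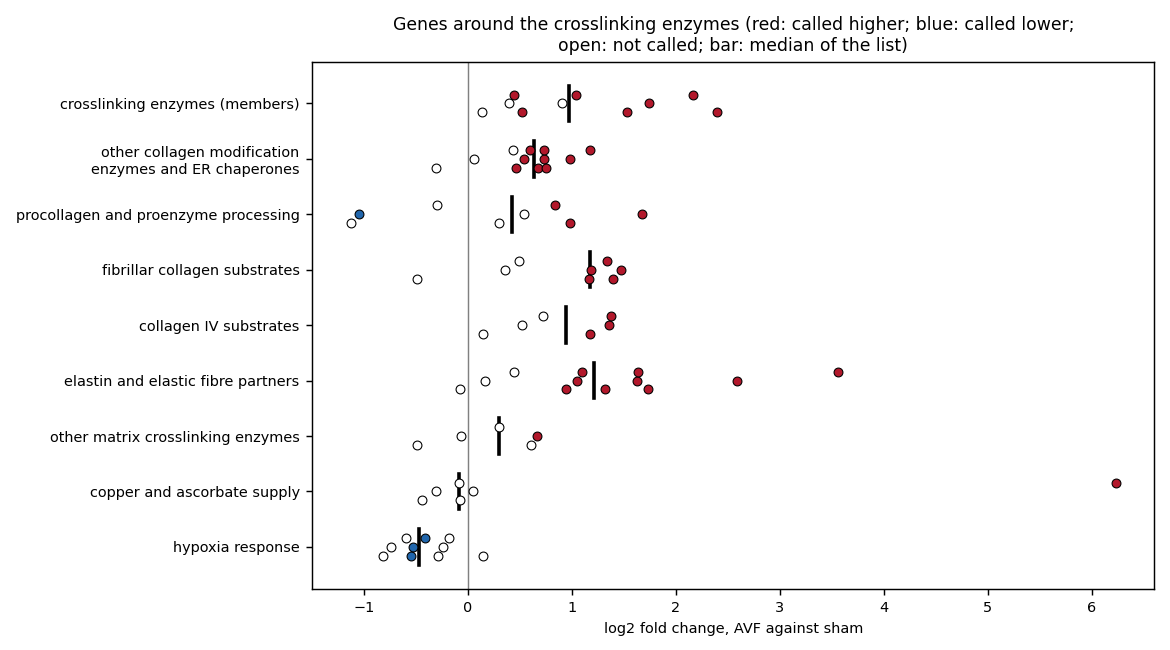
Log2 fold change of AVF against sham (x axis) of each tested gene, in rows by list, with called genes in red (higher) or blue (lower), others open and the list median as a bar. Eln, at 3.57, is the rightmost of the elastin list, Slc23a1, at 6.24, stands alone in the copper and ascorbate list, and the hypoxia list has its median at -0.47.

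Ratios of enzyme to substrate within a library asked whether both transcripts changed by the same factor, since such a ratio does not depend on the scaling between libraries. Lox and Eln were nearly equal in counts in sham, with a log2 ratio of -0.57 to -0.13, and in AVF the ratio was -2.31 to -1.09. The ratio fell by 1.43 on the log2 scale, that is 2.69-fold, by an exact permutation test (two-sided p = 0.00216, adjusted p = 0.00974 over 9 ratios). Loxl1 to Eln ranged from -2.99 to -2.26 in sham and from -4.83 to -4.01 in AVF, and fell by 1.80, with the same p values by the exact permutation test. With 6 against 6 libraries there are 924 regroupings and 0.00216 is the smallest p that this test can give. P4ha1 to Col1a1 fell by 1.23 (exact permutation test, two-sided p = 0.00433, adjusted p = 0.013). Eln rose by 3.57 and Col1a1 by 1.34 on the log2 scale, so a gene that rose less would have a lower ratio too. The share of all tested genes with a lower ratio to Eln or Col1a1 was not counted.

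The other 6 ratios were not called. Lox to Col1a1 was 0.73 higher in AVF on the log2 scale and P4ha3 to Col1a1 was 1.05 higher, each with an adjusted p of 0.0662 by the exact permutation test. Loxl2 to Col4a1 differed by 0.19 (adjusted p = 0.387 by the exact permutation test), with ranges of -2.18 to -1.73 in AVF and -2.73 to -1.73 in sham. Plod2 to Col1a1 differed by -0.08 and Plod2 to Plod1 by 0.84 (adjusted p = 0.175 by the exact permutation test), both with the sexes apart in sham and in AVF. In AVF the sexes were also apart for Lox to Col1a1, P4ha3 to Col1a1, Loxl2 to Col4a1 and Lox to Loxl1, and no ratio was tested between the sexes. These ratios share genes, and each group of operation and sex held 3 libraries. How often ratios of other genes separate the sexes was not counted, so this is a description. Lox to Loxl1 differed by 0.37 (adjusted p = 0.159).

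**Figure D5:**
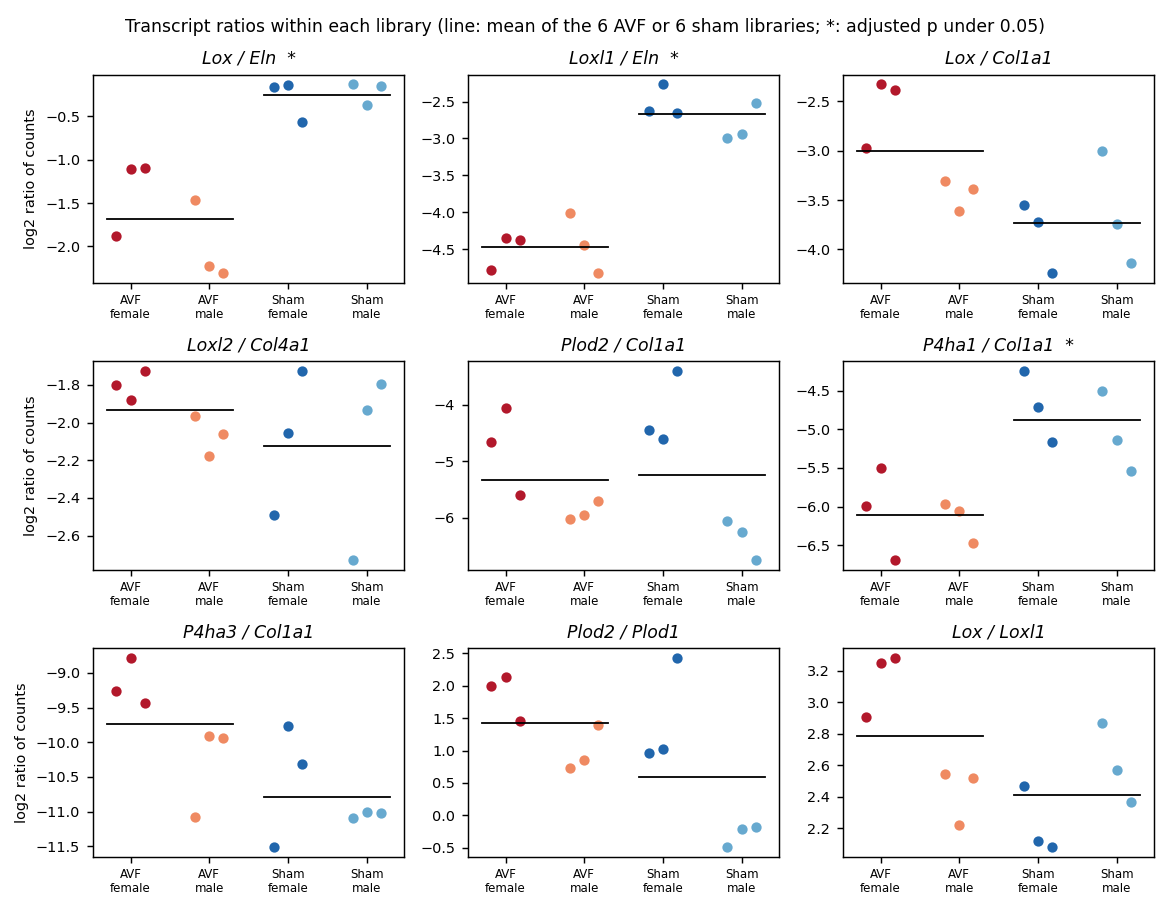
Log2 ratio of the counts of an enzyme to those of its substrate or of another enzyme (y axis, a log2 scale that does not start at 0) in each library, by operation and sex, with the mean of the 6 AVF and of the 6 sham libraries as lines. Lox to Eln, Loxl1 to Eln and P4ha1 to Col1a1, marked with an asterisk, are lower in AVF, by 1.43, 1.80 and 1.23.

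Markers of other cells are given beside the 8.63% of tested genes called higher and the 5.13% called lower. Of 5 proliferation markers 5 were called higher by edgeR's quasi-likelihood test, and their sum, with Mki67 and Top2a, was 169 to 322 normalized CPM in AVF and 41.1 to 77.9 in sham. Of 7 fibroblast markers 4 were called higher, led by Lum (log2 fold change 1.29), and 1 lower, Gsn (-0.95), while their sum was 6615 to 7887 in AVF and 5665 to 8612 in sham. Of 6 macrophage markers 4 were called higher, Lyz2, Adgre1, Csf1r and Cd68, with a sum of 950 to 1505 against 486 to 822. Of 6 brown fat markers 3 were called lower, Cox7a1, Cidea and Cox8b. Lists of smooth muscle, endothelium, adipocyte, mesothelium, sympathetic neuron and striated muscle had 0 called genes by this test, which in lists of 4 to 6 tested genes is near those shares. The part of these markers in the enzyme levels was not tested, and in RNA of a whole vessel more cells of a type and more RNA per cell cannot be told apart.

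The genes whose levels followed each enzyme most closely over the 12 libraries were taken by Pearson's r of log2 normalized CPM, among genes with a mean of at least 10 normalized CPM. The 12 libraries share the difference between AVF and sham, so these values are a description. For Loxl1 they were Gpc4, Col12a1 and Tgfb2 (r = 0.990, 0.988 and 0.987), and for Loxl2 they were Lum, Col5a2 and Loxl1 (0.986, 0.979 and 0.978). Lox was followed by Arhgap11a, Diaph3 and Anxa1 (0.984, 0.983 and 0.980). Loxl3 was followed by Rbbp8, Fkbp10 and Rcn1 (0.985, 0.985 and 0.978), Plod1 by Fbln2, Lum and Nans (0.958, 0.954 and 0.952), Plod3 by Sec23ip, Pdia6 and Tram1 (0.967, 0.944 and 0.932) and P4ha3 by Thy1 and Grb10 (0.974 and 0.967). The enzymes that were not called had other genes beside them: Tmem45a, Heph and Qsox1 for Plod2 (0.953, 0.926 and 0.913), Kctd10, Calhm5 and Tie1 for P4ha1 (0.888, 0.881 and 0.874), and Eps15, Elmo2 and Tspan11 for Loxl4 (0.934, 0.922 and 0.920).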

How the data were processed

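The authors used PRINSEQ and Trimmomatic 0.39 for trimming and STAR 2.7.7a for alignment to GRCm39. They deposited RSEM 1.3.3 expected counts, assigned by strand and without any scaling; versions are from the submitters' processing notes. Names and positions came from GENCODE M39 (54749 of 55414 identifiers). Fractional values were 5.72% to 7.75% of the gene values of each library, zeros included. All values were rounded, then scaled by TMM factors (edgeR 4.0.16, with limma 3.58.1, under R 4.3.3). Expected counts share reads between similar sequences. Libraries of a group differed by more than counting error (chi-square over its degrees of freedom 36.8 to 637 over 30 pairs).

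AVF and sham were compared without covariates and the sexes in a model of 4 groups, with edgeR's quasi-likelihood test, after the filters of the study, which themselves used other tests. Ratios used a prior of 0.5 counts. Fits were also run on simulated data with as many raised as lowered genes, and the outcome is not reported here. The simulation did not model the ribosomal or hepatocyte RNA of single libraries. The 10 enzymes and all lists were chosen with earlier results of these data known. Named genes were the 10 enzymes, the up to 4 called genes of each list with the lowest adjusted p value, the genes of the ratios and the 3 genes most like each enzyme, of which 1 is not reported here; other list genes are named only to say what a list holds. The contrasts within each sex were added after values were seen. The alternatives were RLE size factors, edgeR's exact test, DESeq2 1.42.0, other filters, removal of ribosomal RNA genes, sex as a covariate, a replicate block, a prior of 2 counts for ratios, and leaving out libraries.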

Additional observations from a re-analysis of the deposited data

Results flagged for a closer look

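Of 38 groups of 6 libraries searched (10 enzymes and 9 ratios, in AVF and in sham), 3 held a library far from the others. The rule used would flag about 1 in 20 groups of independent, normally distributed values. Its rate for normalized CPM and for ratios that share genes was not estimated. Lox in AVF female 3 was 1971 normalized CPM, against 1077 in the next AVF library. Loxl4 in AVF female 2 was 4.38 normalized CPM, against 10.2 in the next. Plod2 in Sham female 3 was 337 normalized CPM, against 116 in the next sham library.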

How the results depend on the processing

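The same 7 enzymes were called higher, and none lower, in 9 alternatives and without each library in turn (7 to 8 called, 4 to 6 of them with a 2-fold change). Plod2 was called too with sex as a covariate (log2 fold change 1.19), with the replicate block (1.33) and without Sham female 3 (1.62). In males alone 3 were called, all 3 with a 2-fold change, and in females 5.

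Same-numbered mice of a sex do not come in pairs from any label, and their deviations correlated by -0.13 to 0.25 (3 of 6 pairs over 0.1; 2 of 6 AVF libraries matched their own number best). With the replicate block, 8 enzymes were called in place of 7, 1 other crosslinking gene was called lower, and the 3 called ratios, Lox to Eln (-1.43), Loxl1 to Eln (-1.80) and P4ha1 to Col1a1 (-1.23), had an adjusted p of 0.0703 by exact sign flips of 6 pairs, whose smallest unadjusted p is 0.0312; the block changed no other call of an enzyme or a ratio.

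Genes called lower in all were 1432 with DESeq2, 479 without a filter and 319 without AVF male 2 and AVF female 2 (415 to 947 without 1 library); called higher were 911 without both (915 to 1599 without 1 library). Hypoxia genes called lower were 5 with the exact test of edgeR and with DESeq2 and 1 without both libraries (1 to 3 without 1 library). Other crosslinking genes called higher were 2 with the exact test, with DESeq2 and without both libraries (1 to 2 without 1 library), and 1 was called lower with the exact test and DESeq2. Of the copper and ascorbate genes 0 were called with the exact test, DESeq2, edgeR's own filter, sex as a covariate and without both libraries (0 to 1 without 1 library). DESeq2 called 1 enzyme, Plod2, between female and male sham. Without 1 library, the ratio of Lox to Col1a1 was 0.60 to 0.88 (called without AVF male 2 or Sham male 1), of P4ha3 to Col1a1 0.86 to 1.32 (called without AVF male 1 or Sham female 2) and of Plod2 to Plod1 0.62 to 1.21 (called without Sham female 3). The causes were not tested. Depth limits P4ha3 in sham, with as few as 16 counts.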
